A study of Mus musculus with 12 samples.

Results

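The genes described here are those of the heme synthesis enzymes Alas1, Alas2, Alad, Uros, Urod, Cpox, Ppox and Fech together with Slc25a37, the gene of the mitochondrial iron importer mitoferrin 1. Members were chosen by gene symbol from a list drawn up with earlier results of these data known, and each gene is read from 1 transcript cluster (a group of probes along a transcribed region), the one with the highest mean level over all 12 arrays. Of the 9 named genes, 8 have a cluster of their own among the 22180 genes with a named cluster. The only cluster annotated to Alas2 is also annotated to Apex2, so it is described as a shared cluster and enters no count of members. Lungs of 6 C57BL/6J mice housed for 3 days in a normobaric chamber at 10% oxygen (hypoxia) were compared with lungs of 6 C57BL/6J mice housed in the animal unit at 21% oxygen (normoxia). No transgene or drug treatment is named for either group, apart from the pentobarbital and heparin injected before the lobes were taken. The methods describe purchased C57BL/6J mice as male, and give an age of 10 to 12 weeks for those housed in hypoxia for 14 days, while age and sex are not stated apart for the mice of the arrays. The left lobe was washed in saline and frozen, and its RNA was measured on 1 whole-transcript array for each mouse. The chamber housed the hypoxic mice only, so housing and oxygen cannot be told apart.

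Heme synthesis starts and ends in the mitochondrion and passes through the cytosol in between. ALAS condenses glycine with succinyl-CoA, ALAD, UROS and UROD take part in building and trimming the porphyrin ring in the cytosol, CPOX and PPOX oxidize it in the mitochondrion, and ferrochelatase inserts the iron that mitoferrin brings across the inner membrane. The first step has a housekeeping enzyme, encoded by Alas1 and repressed by heme, and an erythroid enzyme, encoded by Alas2. Developing red cells make most of the body's heme, for hemoglobin, while every nucleated cell makes some for cytochromes and other heme proteins.

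The promoters of the housekeeping and the erythroid gene of the first step are shown because the 2 genes serve different cells. That of Cpox is shown because, among the members with a window used here, it has the most matches to the erythroid motifs. The windows are RefSeq sequences (GRCm38.p6) of the 250 bases before the annotated start, written 5′ to 3′ on the strand of the gene. Capitals mark matches on either strand to the GATA motif with its flanks (AGATAA or AGATAG, and likewise TGATAA or TGATAG), to CACCC, and to the core of the hypoxia response element (ACGTG or GCGTG).
Alas2: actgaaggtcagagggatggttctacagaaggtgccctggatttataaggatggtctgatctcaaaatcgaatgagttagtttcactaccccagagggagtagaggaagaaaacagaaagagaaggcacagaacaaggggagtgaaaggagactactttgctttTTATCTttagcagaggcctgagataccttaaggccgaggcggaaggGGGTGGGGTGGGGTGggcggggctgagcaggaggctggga
Alas1: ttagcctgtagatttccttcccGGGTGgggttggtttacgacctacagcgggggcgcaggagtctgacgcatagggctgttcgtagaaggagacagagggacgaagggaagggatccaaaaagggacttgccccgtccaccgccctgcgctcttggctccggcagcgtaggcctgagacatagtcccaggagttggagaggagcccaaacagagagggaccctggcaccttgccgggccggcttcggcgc
Cpox: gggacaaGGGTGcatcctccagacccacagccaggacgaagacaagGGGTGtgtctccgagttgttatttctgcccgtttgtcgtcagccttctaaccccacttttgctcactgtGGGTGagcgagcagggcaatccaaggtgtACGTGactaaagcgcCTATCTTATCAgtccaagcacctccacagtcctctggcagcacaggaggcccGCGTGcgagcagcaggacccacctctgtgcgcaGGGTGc
The window of Alas2 lies at chrX:150547167-150547416 on the plus strand, that of Alas1 at chr9:106247955-106248204 on the minus strand and that of Cpox at chr16:58669958-58670207 on the plus strand. The Alas2 window holds 1 GATA match and 3 CACCC matches that follow each other without a gap, and no hypoxia response core. The Cpox window holds 2 GATA matches that overlap each other, 4 CACCC matches and 2 hypoxia response cores. The Alas1 window holds 1 CACCC match and neither of the other motifs, and a further annotated start of Alas1 has 1 hypoxia response core in its window. Windows were used for 7 of the 9 members. None was used for Slc25a37 or Fech, the 2 members called higher below. Of all 32851 promoter windows of this length, 26.5% hold a GATA match, 52.0% a CACCC match and 38.6% a hypoxia response core, so that a match in a single window is common. A match is a description of letters and not of a bound site.

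In hypoxic lungs Slc25a37 and Fech rose, and no member fell. The other 6 members with their own cluster stayed short of the threshold. The rise was 1.93-fold for Slc25a37 and 1.48-fold for Fech, while the log2 differences of the other 6 lay between -0.21 and 0.21. Hypoxia was set against normoxia with limma on the deposited log2 levels, with Benjamini-Hochberg adjustment over all 41155 transcript clusters, and a gene passed when its adjusted p was under 0.05. Of the 8 members 2 were called higher (25.0%) and 0 lower, beside a background of 4.47% of all clusters called, 2.77% as higher and 1.70% as lower in hypoxia. That background includes many dim clusters. All 8 members lie among the 20574 brighter clusters, of which 1308 were called higher and 1014 lower when tested alone. The median log2 difference over the 8 members was 0.05, against -0.017 over all clusters. By sign, 4 members lay above 0 and 4 below. Of the 8, 5 had an unadjusted p under 0.05. Counts of unadjusted p, here and below, stand without the share of all clusters, which was not computed. A lung lobe holds many cell types and the blood left in it, so fewer or more cells of a type and less or more RNA per cell cannot be told apart.

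**Figure D1:**
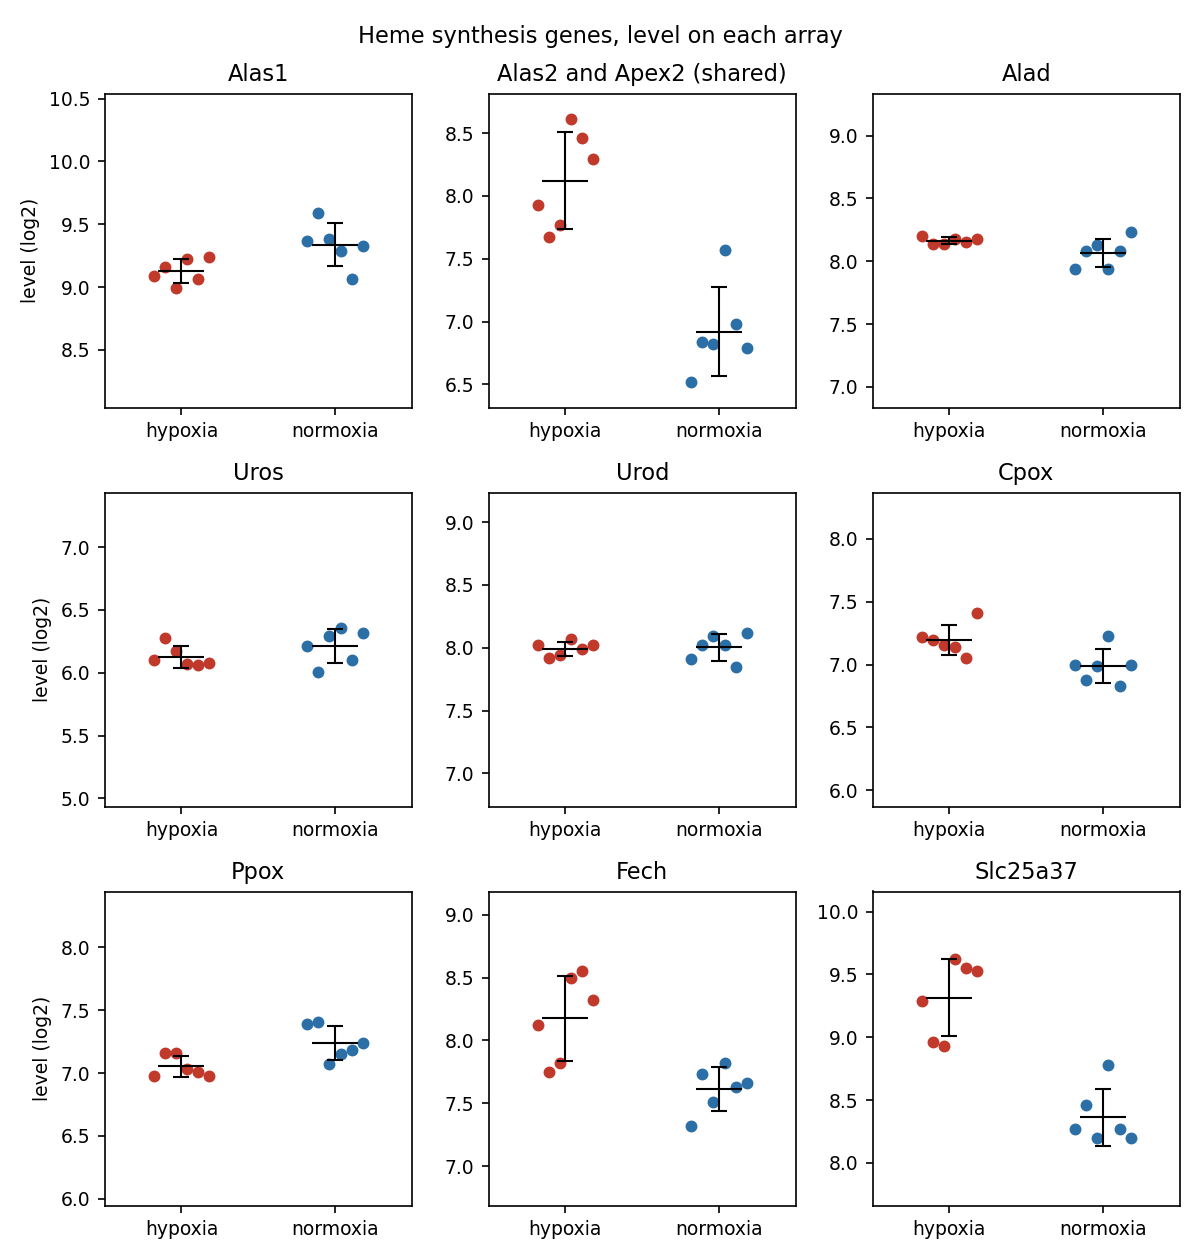
Level of 8 heme synthesis genes and of the cluster shared by Alas2 and Apex2 on each array (log2, y axis; every panel spans the same range of 2.5), with 6 hypoxic mice on the left and 6 normoxic mice on the right; lines are means and bars are SD. The groups lie apart for Slc25a37 and the shared cluster, and in Fech 4 hypoxic mice lie above all normoxic mice.

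Of the members with their own cluster, the 2 called higher encode the iron importer and the enzyme that inserts iron. Slc25a37 (transcript cluster 17308132), through which iron enters mitochondria of developing red cells, had a lowest, median and highest level of 8.93, 9.41 and 9.62 in hypoxic lungs, against 8.20, 8.27 and 8.78 in normoxic lungs (log2 scale, n=6 each). All 6 hypoxic mice lay above all 6 normoxic mice, which held for 1 of the 8 members. Over all clusters the groups did not overlap for 4.03%, with hypoxia on top for 2.50%. The means were 9.31 ± 0.31 in hypoxia and 8.36 ± 0.23 in normoxia (SD, n=6 each), a log2 difference of 0.95 (SE 0.14, 95% confidence interval 0.64 to 1.26, adjusted p=0.00183 from limma). With each array left out in turn the difference stayed between 0.89 and 1.03 and the adjusted p at or below 0.00617 in limma. Fech (transcript cluster 17354995), whose product inserts iron into protoporphyrin in the last step, had levels of 7.75, 8.22 and 8.55 in hypoxic lungs, against 7.32, 7.65 and 7.82 in normoxic lungs (lowest, median and highest). The hypoxic mice fell into 4 above every normoxic mouse and 2 at or just below the highest normoxic mouse. The log2 difference of Fech was 0.57 (SE 0.14, 95% confidence interval 0.25 to 0.88, adjusted p=0.0432 from limma), close to the threshold. The adjusted p of Fech was above the threshold in 10 of the 12 fits that left out 1 array (log2 difference 0.49 to 0.65), and below it only without hypoxia replicate 2 and without hypoxia replicate 3. It was 0.0773 by an analysis of variance without moderation.

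Mitoferrin has a second gene, Slc25a28 (transcript cluster 17364948), which encodes the mitoferrin of cells outside the erythroid line. Slc25a28 had levels of 8.12, 8.23 and 8.31 in hypoxic lungs, against 8.18, 8.25 and 8.32 in normoxic lungs, and its log2 difference was -0.03 (95% confidence interval -0.14 to 0.08, adjusted p=0.844 from limma). The groups overlapped almost fully. Within each array the log2 level of Slc25a37 minus that of Slc25a28 averaged 1.09 ± 0.31 in hypoxic mice and 0.12 ± 0.21 in normoxic mice (SD, n=6 each). Its range was 0.69 to 1.37 in hypoxic mice, against -0.02 to 0.54 in normoxic mice. The groups differed in this measure by 0.98 on the log2 scale, hypoxia minus normoxia (two-sided exact permutation test over 924 arrangements of the 6 and 6 mice, p=0.00216, the smallest p this design allows). Because Slc25a28 hardly varied between mice, this test largely repeats the result for Slc25a37 and is not separate evidence.

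**Figure D2:**
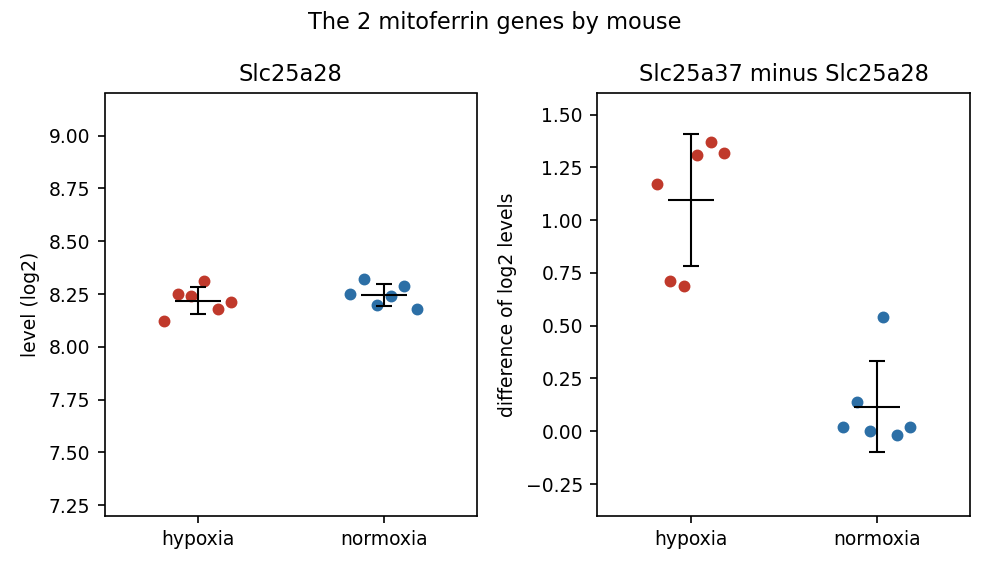
Slc25a28 level (left, log2) and the difference of the log2 levels of Slc25a37 and Slc25a28 within each array (right), for 6 hypoxic and 6 normoxic mice; lines are means and bars are SD. Slc25a28 lies at 8.22 ± 0.06 in hypoxia and 8.25 ± 0.05 in normoxia, while the difference lies at 0.69 to 1.37 in hypoxic mice and at -0.02 to 0.54 in normoxic mice.

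At the first step, the housekeeping gene Alas1 (transcript cluster 17530653) had levels of 8.99, 9.13 and 9.24 in hypoxic lungs, against 9.06, 9.35 and 9.59 in normoxic lungs. All 6 hypoxic mice lay below the normoxic median, though the lowest normoxic mouse, replicate 5, lay within the hypoxic range. The log2 difference of -0.21 (SE 0.08, 95% confidence interval -0.39 to -0.03) missed the threshold in limma (adjusted p=0.201). The cluster shared by Alas2 and Apex2 (transcript cluster 17538575) had levels of 7.67, 8.11 and 8.61 in hypoxic lungs, against 6.52, 6.83 and 7.57 in normoxic lungs. The groups did not overlap, as was so for 2.50% of all clusters with hypoxia on top. The log2 difference was 1.20, or 2.30-fold (SE 0.19, 95% confidence interval 0.79 to 1.62, adjusted p=0.00291 from limma), and the adjusted p was at most 0.00881 with any 1 array left out. Apex2 encodes a DNA repair nuclease, and the RefSeq annotation places Alas2 within the span of Apex2. The rise of this cluster is therefore assigned to neither gene.

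None of the 3 cytosolic members passed the test in limma. Alad (transcript cluster 17426206), whose product joins aminolevulinate into porphobilinogen, had levels of 8.14, 8.17 and 8.20 in hypoxic lungs, against 7.94, 8.08 and 8.23 in normoxic lungs. The hypoxic mice were close together, and 5 of the 6 normoxic mice lay below all of them (log2 difference 0.10, 95% confidence interval -0.03 to 0.22, adjusted p=0.439 from limma). Uros (transcript cluster 17497203), which closes the tetrapyrrole ring, had levels of 6.06, 6.09 and 6.28 in hypoxic lungs, against 6.01, 6.25 and 6.36 in normoxic lungs. Of the hypoxic mice 5 lay below the normoxic median, within the normoxic range (log2 difference -0.09, 95% confidence interval -0.24 to 0.06, adjusted p=0.604 from limma). Urod (transcript cluster 17428735), which removes carboxyl groups from the ring, had levels of 7.92, 8.01 and 8.07 in hypoxic lungs, against 7.85, 8.02 and 8.12 in normoxic lungs. Its difference was the smallest among the 8 members, -0.01 with a 95% confidence interval of -0.13 to 0.12.

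The pair of mitochondrial oxidases lay on opposite sides of 0, and neither passed the test. Cpox (transcript cluster 17326428), whose product turns coproporphyrinogen into protoporphyrinogen, had levels of 7.05, 7.18 and 7.41 in hypoxic lungs, against 6.83, 6.995 and 7.23 in normoxic lungs. All 6 hypoxic mice lay above 5 of the 6 normoxic mice, with normoxia replicate 4 the exception (log2 difference 0.21, 95% confidence interval 0.04 to 0.37, adjusted p=0.178 from limma). Ppox (transcript cluster 17229681), the oxidase that makes protoporphyrin, had levels of 6.98, 7.02 and 7.16 in hypoxic lungs, against 7.07, 7.21 and 7.41 in normoxic lungs. Here 4 hypoxic mice lay below every normoxic mouse and 4 normoxic mice above every hypoxic mouse (log2 difference -0.19, 95% confidence interval -0.34 to -0.04, adjusted p=0.185 from limma). Neither call changed with any single array left out, with differences of 0.17 to 0.26 for Cpox and -0.22 to -0.15 for Ppox.

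**Figure D3:**
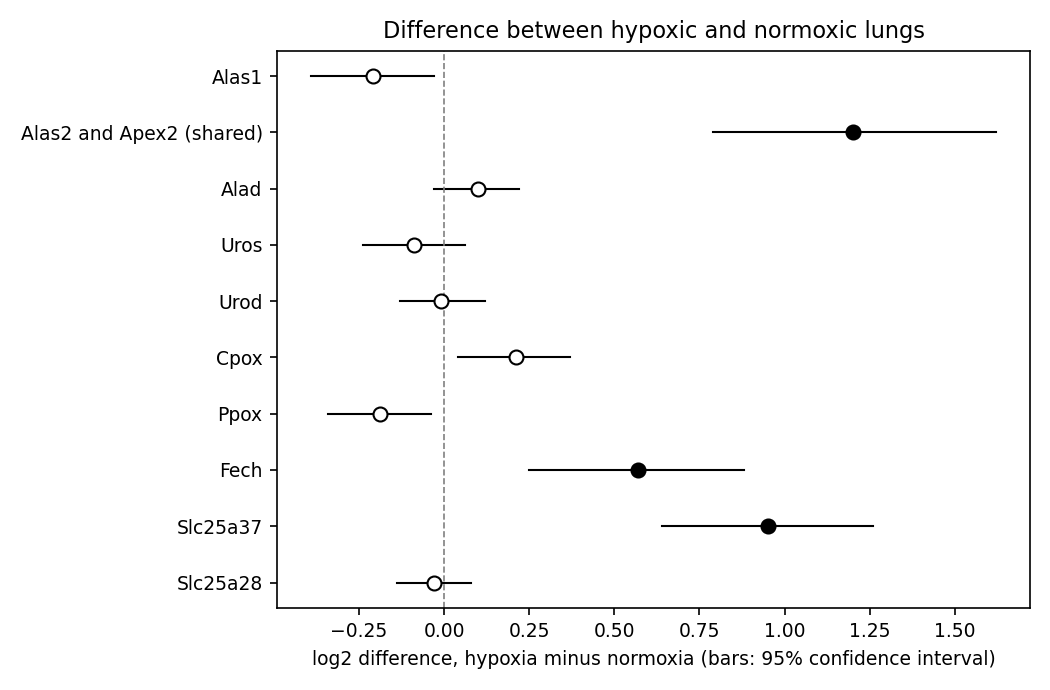
Log2 difference, hypoxia minus normoxia, with its 95% confidence interval from limma for the heme synthesis genes in pathway order, Slc25a37, the cluster shared by Alas2 and Apex2, and Slc25a28; filled points passed the adjusted threshold of 0.05. The filled points lie at 1.20 (shared cluster), 0.57 (Fech) and 0.95 (Slc25a37), and the open points between -0.21 and 0.21.

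Slc25a37 and Fech also varied together from mouse to mouse within the groups. After the mean of each group was subtracted, the correlation over the 12 arrays was 0.88 between Slc25a37 and Fech, 0.90 between Slc25a37 and the shared cluster and 0.89 between Fech and the shared cluster. These are descriptions over mice that share the processing of the arrays. Among the 19380 other genes with a non-provisional symbol, Fech ranked 23 in this likeness to Slc25a37. The 5 genes most like Slc25a37 by this measure were Rmnd5a (0.952), Grina (0.952), Ubald1 (0.921), Grpel1 (0.915) and Mpc1 (0.914), and none of them passed the test between the groups (log2 differences -0.20 to -0.06). Other members were much less like it, from -0.37 for Ppox to 0.32 for Urod, with 0.27 for Alas1 and 0.31 for Cpox, and the second mitoferrin gene Slc25a28 had 0.12. In hypoxia, replicates 4, 5 and 6 had the highest levels of Slc25a37 (9.62, 9.55 and 9.53), of Fech (8.50, 8.55 and 8.32) and of the shared cluster (8.61, 8.46 and 8.29). In normoxia, replicate 4 was the highest for all 3, with 8.78 for Slc25a37, 7.82 for Fech and 7.57 for the shared cluster.

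Some genes of red cells rose as well. Of 26 listed erythroid markers 18 were measured with their own cluster. Of the 18, 3 were called higher, 0 lower and 15 neither, beside 2.77% of all clusters called higher and 1.70% lower. Their median log2 difference was 0.09, against -0.017 over all clusters. Bpgm encodes the enzyme that makes bisphosphoglycerate, which lowers the oxygen affinity of hemoglobin. Its levels were 7.37, 7.74 and 7.93 in hypoxia, against 6.81, 6.98 and 7.42 in normoxia (log2 difference 0.63, SE 0.13, adjusted p=0.0146 from limma). Trim10, a gene of terminal red cell differentiation, did not overlap between the groups, as was so for 2.50% of all clusters with hypoxia on top. Its levels were 5.86, 6.13 and 6.47 in hypoxic lungs, against 5.42, 5.51 and 5.63 in normoxic lungs (log2 difference 0.63, adjusted p=0.00489 from limma). Slc4a1, the band 3 anion exchanger of the red cell membrane, had 6.16, 6.87 and 7.48 in hypoxic lungs, against 5.82, 6.02 and 6.28 in normoxic lungs (log2 difference 0.83, adjusted p=0.0334 from limma). Without single arrays the call of Slc4a1 was lost in 8 of 12 fits (0.71 to 0.97), and those of Bpgm and Trim10 were kept in all 12. The blood group gene Kel (0.25, adjusted p=0.195), the carbonic anhydrase gene Car1 (0.24, adjusted p=0.233), Rhag (0.20) and the spectrin gene Sptb (0.12) had the smallest p among the markers that did not pass in limma. In all, 10 of the 18 markers lay above 0, and the log2 differences ranged from -0.16 to 0.83. The lowest were those of Klf1, an erythroid transcription factor gene (-0.16), and Ermap (-0.15), both named after their values were seen. The other 8 listed markers, the globin genes among them, were not analysed here.

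The mean log2 level of the 18 markers ranged from 5.36 to 5.63 in hypoxic mice and from 5.31 to 5.39 in normoxic mice. It includes Bpgm, Trim10 and Slc4a1, the 3 called higher, and Slc4a1 alone spanned 6.16 to 7.48 in hypoxic mice. The correlations below were not computed without these 3. The lowest level of any of the 18 was 3.56, since the processing gives no level of 0. Kel (mean 4.01 in hypoxia and 3.76 in normoxia) and Epb42 (4.63 and 4.66) were among the dim markers, in which a change can be missed. On every array the mean of the 18 lay below the lowest array median over all clusters, 5.89. Within hypoxia this mean was correlated with Fech (Pearson's r=0.98, exact permutation p=0.00278, adjusted p=0.025; Spearman's rho=0.94, exact permutation p=0.0167, adjusted p=0.133; n=6). Leaving out the 2 mice farthest from the median of the marker mean gave r=0.91. For Slc25a37 in hypoxia, r was 0.95 (exact permutation p=0.0139, adjusted p=0.075) and rho 0.77 (exact permutation p=0.103, adjusted p=0.37), with r=0.83 without those 2 mice. For the shared cluster in hypoxia, r was 0.93 (exact permutation p=0.0167, adjusted p=0.075) and rho 0.83 (exact permutation p=0.0583, adjusted p=0.263), with r=0.80 without them. Uros ran the other way in hypoxia, with r=-0.94 (exact permutation p=0.00278, adjusted p=0.025), rho=-0.94 (exact permutation p=0.0167, adjusted p=0.133) and r=-0.96 without them. In normoxia, where the marker mean spans only 5.31 to 5.39, r was -0.56 for Fech (exact permutation p=0.289, adjusted p=0.433), -0.77 for Slc25a37 (exact permutation p=0.0889, adjusted p=0.212) and -0.90 for the shared cluster (exact permutation p=0.0333, adjusted p=0.12). Their rho was -0.32, -0.44 and -0.50 in that order (exact permutation p=0.511, 0.444 and 0.333, adjusted p=0.613, 0.593 and 0.593), and without the 2 farthest mice r turned positive for all 3 (0.41, 0.45 and 0.67), so that the normoxic values rest on those mice. These are 18 relations, adjusted together, and with 6 mice an exact p moves in coarse steps. No other of the 18 had an adjusted p under 0.05 for either coefficient. What part the amount of red cell RNA had in the rise of Slc25a37, Fech and the shared cluster was not tested.

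**Figure D4:**
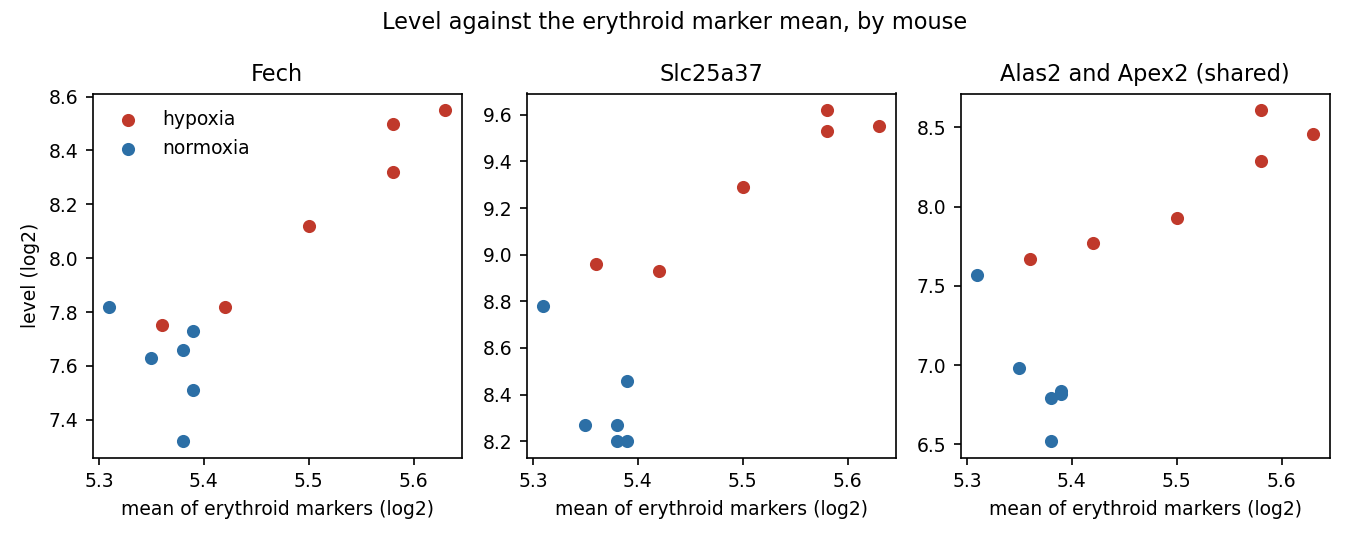
Level of Fech, Slc25a37 and the cluster shared by Alas2 and Apex2 (y axes, log2) against the mean log2 level of 18 erythroid markers (x axes), 1 point for each mouse, 6 in hypoxia and 6 in normoxia. Hypoxic mice spread from 5.36 to 5.63 on the x axis, with higher levels of all 3 towards the right, and normoxic mice lie between 5.31 and 5.39.

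Genes that surround the pathway were mostly close to 0. The neighbour genes carry glycine, iron, porphyrins and iron-sulfur clusters in and out of mitochondria or regulate the enzymes. Of 15 measured (18 listed), 1 was called lower, 0 higher and 14 neither, with a median log2 difference of 0.04. Over all clusters 1.70% were called lower and 2.77% higher. The gene that fell was Ppargc1a, a coactivator of mitochondrial biogenesis that induces Alas1 in mouse liver, with 6.32, 6.42 and 6.72 in hypoxic lungs, against 6.63, 6.75 and 6.94 in normoxic lungs (log2 difference -0.31, SE 0.08, adjusted p=0.0338 from limma). Its call was lost in 10 of 12 fits without single arrays, with differences of -0.37 to -0.28. Glrx5, of iron-sulfur cluster assembly (0.24, adjusted p=0.175), Tmem14c, a porphyrin carrier of red cell precursors (0.21, adjusted p=0.221), Slc25a39, a mitochondrial glutathione carrier (0.20), and Pgrmc1, a heme-binding partner of ferrochelatase (-0.21, adjusted p=0.0917), did not pass in limma.

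None of 19 measured genes of heme export, heme breakdown and iron handling (21 listed) passed the test, in limma or in the analysis of variance. Over all clusters 4.47% were called in limma, so a list of this length can hold no call by that share alone. The median log2 difference was 0.07, against -0.017 over all clusters. An unadjusted p under 0.05 was reached by 7 of the 19, with no share of all clusters to set beside it. Tfrc, the transferrin receptor through which cells take up iron, had levels of 7.92, 8.07 and 8.32 in hypoxic lungs, against 7.76, 7.87 and 7.97 in normoxic lungs (log2 difference 0.22, 95% confidence interval 0.08 to 0.37, adjusted p=0.0925 from limma). Hp, which encodes the hemoglobin-binding plasma protein haptoglobin, had a log2 difference of 0.32 (adjusted p=0.105) and Blvra, a biliverdin reductase gene, of 0.19 (adjusted p=0.139 from limma). Trf and Ftl1 were not analysed here.

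**Figure D5:**
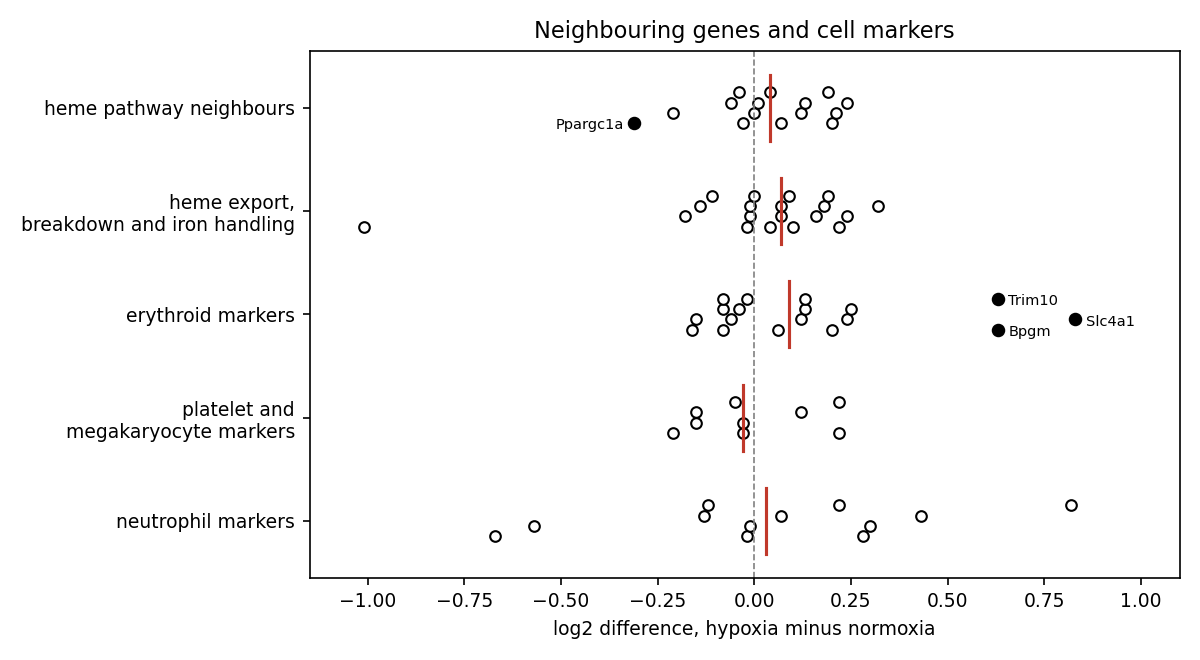
Log2 difference, hypoxia minus normoxia, of each measured gene (1 point each) in 5 lists of genes, with the median of each list as a vertical red line; filled points passed the adjusted threshold of 0.05 in limma. The filled points are Ppargc1a at -0.31 among the pathway neighbours and Trim10, Bpgm and Slc4a1 at 0.63, 0.63 and 0.83 among the erythroid markers.

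Markers of neutrophils and of platelets, the only other blood cells looked at, gave no calls in limma or in the analysis of variance. Over all clusters 4.47% were called in limma, so lists this short can hold no call by that share alone. None of 12 neutrophil markers passed, 2 had an unadjusted p under 0.05, and the median was 0.03, with Camp at -0.67, Ngp at -0.57, Mmp8 at 0.43 and Retnlg at 0.82. Their mean level ranged from 6.49 to 6.88 in hypoxic mice and from 6.24 to 6.95 in normoxic mice. None of 9 measured platelet and megakaryocyte markers (12 listed) passed, none had an unadjusted p under 0.05, and the median was -0.03, with Pf4 at 0.22, Itgb3 at 0.12, Itga2b at -0.15 and Clec1b at -0.21. Their mean level ranged from 7.05 to 7.76 in hypoxic mice and from 7.12 to 7.75 in normoxic mice. The tissue label was checked with 6 markers of lung epithelium and endothelium, whose lowest level on any array was 9.08. None of these 6 passed the test or had an unadjusted p under 0.05, with Sftpc at -0.04, Sftpb at -0.07, Ager at -0.05 and Cldn5 at -0.08. Array medians were 5.89 to 5.92 in hypoxia and 5.89 to 5.95 in normoxia, and pairs of arrays correlated at 0.983 to 0.989.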

How the data were processed

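Left lobes of 12 mice were profiled on 1 Mouse Gene 2.0 ST array each. The authors ran RMA in Affymetrix Expression Console, so each deposited value is a background-corrected and normalized level on a log2 scale, 1 for each transcript cluster. No source used here gives the versions. Precision is limited by the number of mice. The p-values from limma set each difference between groups against the spread between mice, which limma pools in part over all clusters. Of 41345 rows, 190 control rows were left out, and 41155 clusters were tested without a filter. Names came from the platform annotation through gene IDs (RefSeq, GRCm38.p6). Of these clusters 23521 have 1 symbol, 1820 several and 15814 none used here. Where a gene has several clusters, the one with the highest mean level was used.

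Groups were set against each other with two-sided tests in limma 3.58.1 (R 4.3.3). The methods name an analysis of variance, which was run as an alternative. Exact permutation tests, correlations and plots were made in Python 3.11.15 with scipy 1.17.1, numpy 2.4.6, pandas 2.3.3 and matplotlib 3.10.9. The fit was tested on simulated arrays. The named genes are every member, Slc25a28, and of each of 6 lists the genes past the threshold and up to 4 others with the smallest p; Hamp, Tfrc, Hp and Blvra are such others. For Slc25a37 the 5 genes with the highest within-group correlation were named too. The same step and a comparison of Alas2 with Alas1 were planned for Alas2 and not run, since its cluster is shared. Some listed genes are not reported here. Members and lists were chosen with earlier results of these data known. Alternatives were the test, a variance trend, array weights, scaling, a filter on dim clusters, a block for the replicate number, leaving out single arrays, other thresholds and the mean of all clusters of a gene.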

Additional observations from a re-analysis of the deposited data

How the results depend on the processing

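Of the heme synthesis genes, 2 were called higher in hypoxia; the count was 1, Slc25a37 alone, by the analysis of variance, with the replicate number as a block and at an adjusted p of 0.01, and 1 to 2 with each array left out in turn. Fech had an adjusted p of 0.0773 by the analysis of variance and 0.0618 with the block, and Slc4a1 of 0.0679 and 0.0598. No member was called lower under any alternative. Urod had a log2 difference of 0.01 with arrays centred on their medians, and -0.04 to 0.02 over the left-out arrays. Without the dimmer clusters, 2 pathway neighbours were called lower (Pgrmc1 beside Ppargc1a) and 1 iron gene higher (Tfrc). Of the 20574 clusters tested in that setting, 1308 were called higher and 1014 lower. With arrays left out, 0 to 1 pathway neighbours were called lower, 2 to 3 erythroid markers higher and 0 to 1 neutrophil markers higher (Cxcr2, chosen after its values were seen, without normoxia replicate 4). The shift between the mitoferrin genes was 0.92 to 1.06 over the left-out arrays and 0.98 by a sign-flip test over pairs with the same replicate number (exact p=0.0312, the smallest it allows). With the replicate block, 682 clusters were called higher and 279 lower over the whole table, against 1141 and 699 without it. After group means were subtracted, same-numbered arrays of the 2 groups correlated at -0.01 to 0.072, against -0.1 to 0.081 for other numbers. Of 6 hypoxia arrays, 1 was closest to its own number. Whether same-numbered arrays share a step of processing was not tested. Trim10 was not tested among the brighter clusters. The levels are bounded by 6 mice a group, and small changes of single genes can be missed.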

Other observations

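Hamp, the gene of the iron hormone hepcidin, had the lowest log2 difference of the 19 genes of heme export, breakdown and iron handling, -1.01 (95% confidence interval -1.77 to -0.25, adjusted p=0.148 from limma). Its levels were 6.86, 8.51 and 9.17 in hypoxic lungs, against 8.61, 9.23 and 10.02 in normoxic lungs (lowest, median and highest, n=6 each). The groups overlapped and the test was not passed.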
